A study of Saccharomyces cerevisiae with 10 samples.

Results

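The 34 genes described here encode the enzymes that carry glucose to ethanol, acetate and glycerol in budding yeast, Saccharomyces cerevisiae. They were chosen by systematic name, as enzymes of these pathways and their paralogs. All 34 were among the 7126 targets other than spike-ins, and all 34 passed the filter on low counts, as did 6390 genes in all. They comprise 17 glycolytic genes from glucokinase to pyruvate kinase, 8 genes of pyruvate decarboxylase (PDC) and alcohol dehydrogenase (ADH), 5 of aldehyde dehydrogenase (ALD) and 4 of glycerol synthesis (GPD and GPP). Messenger RNA was sequenced from BY4743, a laboratory diploid, growing exponentially on rich medium with glucose. There were 2 libraries for each of 5 groups, 10 in all: naive diploids, diploids carrying the heritable state [ESI+], and homozygous diploids lacking HOS2, SET3 or SNT1. The 3 encode parts of Set3C, a histone deacetylase complex, and the series asks how the transcripts of [ESI+] cells stand beside those of cells that lack this complex. All 5 groups share strain and medium, and the labels do not say whether replicates were separate cultures, so a p-value reflects the spread among libraries, which may be technical.

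Glycolysis turns glucose into pyruvate, and on abundant glucose yeast sends most pyruvate to ethanol through pyruvate decarboxylase and alcohol dehydrogenase. Smaller flows leave as acetate, through aldehyde dehydrogenases, and as glycerol, which balances NADH and protects against osmotic stress. Most steps have isoenzymes: an abundant form for growth on glucose, and minor forms that are typically held low by glucose or induced by stress or by growth on other carbon sources. Transcription of the abundant forms is known to depend on the activators Rap1 and Gcr1, whereas many minor forms respond to the stress factors Msn2 and Msn4.

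Estimated counts per library ran from 8327735 to 80651761. ERCC spike-ins took 0.946 to 5.19% and ribosomal RNA 8.62 to 28.0% of them. The [ESI+] libraries held the ends of both ranges. Replicate 1 had 0.946% ERCC and 28.0% ribosomal RNA, and replicate 2 had 5.19% and 8.62%. Each deleted gene had between 0 and 4 counts in the libraries that lack it. At nuclear genes that were nearly silent in the other groups, [ESI+] replicates 1 and 2 had 0.301 and 1.43 counts-per-million (CPM) per kb as the median gene, against 0 to 0.0888 for the other 8 libraries. In [ESI+] against naive, the median log2 fold change was -0.23 over the 1609 genes with the shortest coding sequences (up to 597 bases) and 0.42 over the 1598 with the longest (1824 bases or more).

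Several isoenzymes are close copies, and the sequences below show how reads tell them apart. The coding sequences of TDH2 and TDH3 are identical at 95.8% of 999 bases and share an unbroken run of 173 bases, and TDH1 matches TDH3 at 88.9%. ENO1 and ENO2 match at 94.8% of 1314 bases, ADH1 and ADH2 at 88.8% of 1047, PDC1 and PDC5 at 87.2% of 1692, and ALD2 and ALD3 at 91.8% of 1521 with a shared run of 329 bases. GPP1 and GPP2 match at 83.2% with no shared run over 26 bases. In the 60 bases of the TDH genes with the most differences, bases 64 to 123 of the coding sequence in build R64, capitals in TDH3 mark each position where a copy differs, and capitals in TDH2 and TDH1 mark their own 12 and 17 differences from TDH3.
TDH3: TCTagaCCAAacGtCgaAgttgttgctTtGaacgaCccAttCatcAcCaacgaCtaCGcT
TDH2: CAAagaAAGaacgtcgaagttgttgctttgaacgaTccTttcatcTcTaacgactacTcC
TDH1: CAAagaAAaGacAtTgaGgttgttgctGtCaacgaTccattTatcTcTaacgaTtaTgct
The enolase genes, at bases 340 to 399, differ at 13 positions, in capitals.
ENO2: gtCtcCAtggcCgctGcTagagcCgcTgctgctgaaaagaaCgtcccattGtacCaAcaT
ENO1: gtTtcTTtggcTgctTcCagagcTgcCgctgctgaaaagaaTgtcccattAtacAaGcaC
For 10 of the 34 genes at least 1 library had an estimated count that was not whole, the mark of reads shared with another target. They are GLK1, TDH1, TDH2, GPM1, ENO1, PDC5, ADH2, ALD2, ALD3 and GPD1, and their values depend on how those reads were split. The largest counts were deposited without decimals, so the mark cannot be read in any library for FBA1, TDH3, PGK1, ENO2, CDC19, PDC1 or ADH1.

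On the deposited transcripts-per-million (TPM) scale, which corrects for length, these genes spanned the whole range of expression. TDH3 (YGR192C), glyceraldehyde-3-phosphate dehydrogenase, had the highest mean TPM of all open reading frames over the 10 libraries, at 43710 (35210 to 57790). ENO2 (YHR174W), enolase, averaged 29600 TPM and ADH1 (YOL086C), the ethanol-forming dehydrogenase, 25600 TPM. FBA1, aldolase, averaged 17130 TPM, PDC1 15790, PGK1, phosphoglycerate kinase, 12570 and CDC19, pyruvate kinase, 10160. Phosphofructokinase, the main control point of the upper pathway, was far lower, with mean TPM of 357 for PFK1 and 373 for PFK2. At the low end were PDC6, a minor decarboxylase, with a mean of 0.505 TPM, ALD3, a stress-induced aldehyde dehydrogenase, with 2.76 TPM, and GPM2, a minor copy related to phosphoglycerate mutase, with 5.44 TPM.

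Together the 34 genes took 35.6 and 41.3% of all open reading frame counts in naive replicates 1 and 2. Their share was 27.6 and 28.2% in [ESI+], 26.4 and 29.6% without HOS2, 29.7 and 29.9% without SET3, and 34.4 and 37.6% without SNT1. All 6 libraries of [ESI+], hos2 and set3 lay below both naive libraries, and the snt1 libraries overlapped the naive range. The exact binomial 95% interval of a share was at most 0.034 percentage points to either side, and covers counting error only, since PCR copies are not independent molecules. Glycolytic genes made up most of it, at 27.1 and 30.4% in naive and 20.6 and 20.7% in [ESI+]. PDC and ADH genes added 7.99 and 10.4% in naive and 6.51 and 7.13% in [ESI+]. Glycerol genes held 0.357 and 0.367% in naive, above the 0.291 to 0.333% of every other library. On the TPM scale the share was 23.3 and 29.4% in naive, 19.0 and 19.9% in [ESI+], 16.2 and 20.5% in hos2, 18.4 and 20.7% in set3, and 22.8 and 24.6% in snt1.

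**Figure D1:**
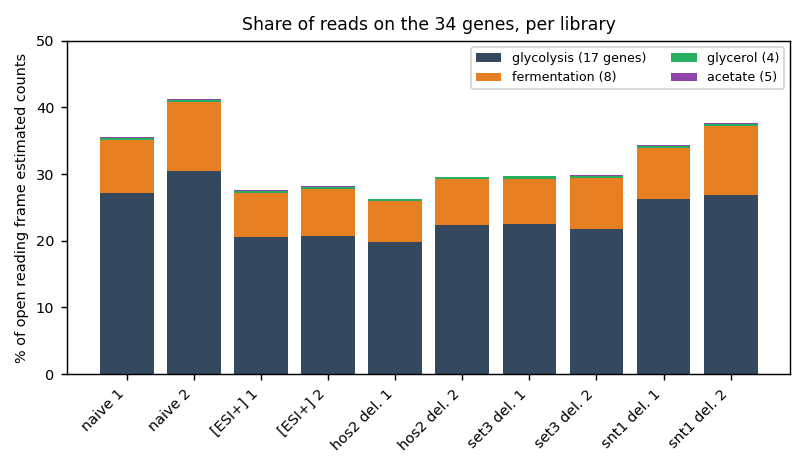
Stacked bars give, for each library, the percent of open reading frame estimated counts (y axis) held by the glycolytic, fermentation, glycerol and acetate genes. The 2 naive bars reach 35.6 and 41.3% and the [ESI+] bars 27.6 and 28.2%.

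[ESI+] was set against naive to ask which of these transcripts differ in the heritable state. Transcripts fell for enzymes at most but not all steps, to between 0.327 and 0.606 of the naive level among the genes called, and no gene of phosphofructokinase, phosphoglycerate kinase, phosphoglycerate mutase or pyruvate decarboxylase passed. Of the 34 genes 19 fell and 0 rose, where 28.3% of all 6390 genes tested were called, 14.5% lower and 13.9% higher. The median log2 fold change was -1.01 for the 34 genes and 0.093 for all genes. By role, 11 of 17 glycolytic, 3 of 8 fermentation, 2 of 5 acetate and 3 of 4 glycerol genes fell. Fold changes are log2 ± standard error from 2 libraries against 2, with p-values from edgeR's quasi-likelihood test adjusted by Benjamini-Hochberg over all genes, at a threshold of 0.05.

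Among the abundant glycolytic enzymes, CDC19 (YAL038W) had 22170 and 34020 CPM in naive and 10820 and 8900 CPM in [ESI+]. Both [ESI+] libraries were below both naive ones, and CDC19 fell by 1.51 ± 0.35 (adjusted p = 0.00970), to 0.351 of the naive level. FBA1 had 26230 and 37660 CPM in naive and 13520 and 11010 CPM in [ESI+], and fell by 1.38 ± 0.33 (adjusted p = 0.0111). TDH3 had 57840 and 90220 CPM in naive and 29470 and 31590 CPM in [ESI+], and fell by 1.28 ± 0.36 (adjusted p = 0.0221). For each of the 3, the naive libraries differed from each other by more than the [ESI+] libraries did, and the groups did not overlap. TDH1 and TDH2, the other 2 forms of that dehydrogenase, fell by 1.37 ± 0.30 (adjusted p = 0.00761) and 1.24 ± 0.32 (adjusted p = 0.0150). ENO1 went from 10910 and 20350 CPM to 6115 and 5067 CPM and fell by 1.48 ± 0.35 (adjusted p = 0.0109), and ENO2 fell by 1.25 ± 0.41 (adjusted p = 0.0411). GLK1, glucokinase, PGI1, phosphoglucose isomerase, TPI1, triosephosphate isomerase, and PYK2, the minor pyruvate kinase, also fell, by 0.78 to 1.25.

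The remaining glycolytic genes did not pass. PGK1 had -1.16 ± 0.45 (adjusted p = 0.0740) and GPM1, phosphoglycerate mutase, -0.995 ± 0.35 (adjusted p = 0.0519), with both [ESI+] libraries below both naive libraries for each. PFK1 had -0.19 ± 0.28 and PFK2 -0.46 ± 0.31, with groups that overlapped. GPM2 and GPM3, minor copies, had 0.25 ± 0.54 and 0.033 ± 0.19.

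In fermentation, ADH1 showed the lowest fold change of the 34 genes. It had 33600 and 67560 CPM in naive and 16620 and 16500 CPM in [ESI+], and fell by 1.61 ± 0.41 (adjusted p = 0.0155), to 0.327 of naive. ADH2, the glucose-repressed form that oxidises ethanol, had only 18.3 and 12.2 CPM in naive and 4.90 and 6.95 CPM in [ESI+], and fell by 1.37 ± 0.37 (adjusted p = 0.0207). ADH4 fell by 0.72 ± 0.21 (adjusted p = 0.0226). The mitochondrial form ADH3 had -0.74 ± 0.27 (adjusted p = 0.0607) and ADH5, a minor form, -0.31 ± 0.25 (adjusted p = 0.371). No pyruvate decarboxylase gene passed: PDC1 had -0.91 ± 0.41 (adjusted p = 0.110), PDC5 -0.38 ± 0.20 (adjusted p = 0.163) and PDC6 0.16 ± 0.71 (adjusted p = 0.889).

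In the branches, ALD4 (YOR374W), the main mitochondrial aldehyde dehydrogenase, had 249 and 286 CPM in naive and 138 and 111 CPM in [ESI+], and fell by 1.10 ± 0.24 (adjusted p = 0.00807). ALD6, the main cytosolic form, fell by 1.08 ± 0.31 (adjusted p = 0.0244). GPP2 (YER062C), the stress-induced glycerol phosphatase, had the smallest p of the 34 genes: 136 and 150.3 CPM in naive against 65.4 and 48.9 CPM in [ESI+], a fall of 1.32 ± 0.24 (adjusted p = 0.00338). Its constitutive partner GPP1 fell by 1.05 ± 0.30 (adjusted p = 0.0232) and GPD2, a glycerol-3-phosphate dehydrogenase, by 1.03 ± 0.26 (adjusted p = 0.0138). GPD1, the osmotically induced form, had -0.89 ± 0.31 (adjusted p = 0.0518). ALD2, ALD3 and ALD5 did not pass, at -0.43, -0.55 and -0.32.

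With the counts of each enzyme's isoenzymes summed, which removes the split of shared reads between them, 8 of 11 enzyme families fell in [ESI+]. In the fit to single genes 14.5% of all genes were called lower, and the share over all rows of the summed fit was not counted. The alcohol dehydrogenase sum fell by 1.59 ± 0.41 (adjusted p = 0.0163), the pyruvate kinase sum by 1.51 ± 0.35 (adjusted p = 0.0100), the TDH sum by 1.28 ± 0.37 (adjusted p = 0.0236) and the enolase sum by 1.29 ± 0.41 (adjusted p = 0.0353). The sums for phosphoglycerate mutase, pyruvate decarboxylase and phosphofructokinase did not pass, at -0.99, -0.91 and -0.33.

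These calls rested on few libraries. In each fit without 1 naive or [ESI+] library, fewer of all genes were called. The median of the 34 genes minus that of all genes was -1.34 to -0.79 in these fits. The 19 calls became 21 without naive replicate 1, 2 without naive replicate 2, 5 without [ESI+] replicate 1 and 0 without [ESI+] replicate 2, while the median of the 34 genes stayed between -0.75 and -1.24. GPP2 kept its call in 3 of these 4 fits, TDH1, CDC19, ALD6 and ALD4 in 2, and the other 14 genes in 1. Scaled by the spike-ins, all genes had a median of 0.80 and the 34 genes -0.048, PGI1, PYK2 and ADH4 lay above 0, and 0 of the 34 were called. After removal of each library's trend with coding length 18 genes fell, with a median of -1.07, and after subtraction of the reads seen at silent genes 17 fell, with a median of -0.89. In these fits 931 and 869 of all genes fell.

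**Figure D2:**
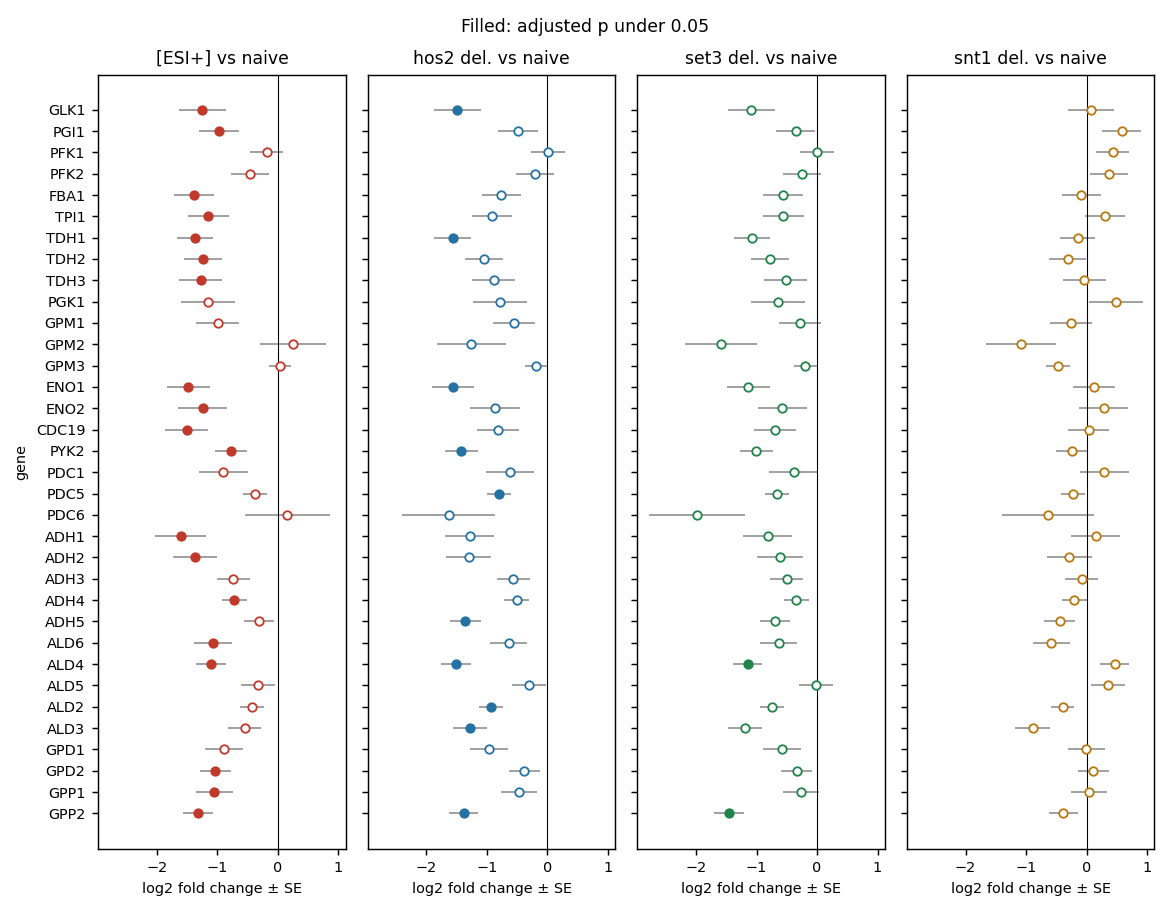
Points give each gene's log2 fold change against naive (x axis) with its standard error, in 4 panels for [ESI+] and the hos2, set3 and snt1 deletions, and filled points have an adjusted p under 0.05. Filled points number 19 in [ESI+], 10 in hos2, 2 in set3 and 0 in snt1.

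The hos2 deletion was compared with naive to see which of these transcripts depend on the deacetylase subunit. Here 10 of the 34 genes fell and 0 rose, where 7.65% of all genes were called, 4.69% lower and 2.96% higher, and the median was -0.88 against 0.027 for all genes. The genes that fell were 4 glycolytic (GLK1, TDH1, ENO1, PYK2), 2 of fermentation (PDC5, ADH5), 3 of acetate (ALD2, ALD3, ALD4) and 1 of glycerol (GPP2). Each of TDH1, ENO1, PYK2, PDC5 and GPP2 has a more abundant isoenzyme that did not pass: TDH3 had -0.89 ± 0.36 (adjusted p = 0.160), ENO2 -0.86 ± 0.41 (adjusted p = 0.224), CDC19 -0.81 ± 0.34 (adjusted p = 0.184), PDC1 -0.62 ± 0.40 (adjusted p = 0.386) and GPP1 -0.47 ± 0.30 (adjusted p = 0.372). Likewise ADH1, more abundant than ADH5, and ALD6, more abundant than ALD2 and ALD3, did not pass, and ADH1 is given below. These values do not show that the abundant forms stayed the same.

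ALD4 had 80.9 and 107 CPM in hos2 against 249 and 286 CPM in naive, and fell by 1.51 ± 0.25 (adjusted p = 0.00612). GPP2 had 49.8 and 59.9 CPM against 136 and 150.3 CPM, and fell by 1.38 ± 0.24 (adjusted p = 0.00819). TDH1 had 1127 and 1590 CPM against 3411 and 4649 CPM, and fell by 1.57 ± 0.30 (adjusted p = 0.0122). In all 3 genes both deletion libraries lay well below both naive libraries. ENO1 had 4744 and 5837 CPM against 10910 and 20350 CPM, and fell by 1.56 ± 0.35 (adjusted p = 0.0243). PYK2 had 23.3 and 37.6 CPM against 70.5 and 92.5 CPM, and fell by 1.43 ± 0.27 (adjusted p = 0.0117). ADH5 had 41.6 and 38.9 CPM against 79.0 and 128 CPM, and fell by 1.36 ± 0.26 (adjusted p = 0.0117). GLK1, at 505 and 947 CPM against 1615 and 2458 CPM, fell by 1.49 ± 0.39 (adjusted p = 0.0419), and its groups also did not overlap. ALD3, ALD2 and PDC5, all with shared reads and under 30 CPM, fell by 1.28 ± 0.28, 0.94 ± 0.20 and 0.80 ± 0.20 (adjusted p = 0.0216, 0.0185 and 0.0364).

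ADH1 and ADH2 had -1.29 ± 0.41 (adjusted p = 0.0801) and -1.31 ± 0.38 (adjusted p = 0.0602), and PFK1 had 0.0062 ± 0.28. The 10 calls became 12 without naive replicate 1, 0 without naive replicate 2, 0 without hos2 replicate 1 and 5 without hos2 replicate 2. TDH1, PYK2, ALD4 and GPP2 kept their calls in 2 of these 4 fits, ALD3 in 0 and the other 5 genes in 1. Among all genes, fewer were called in each of these 4 fits. With spike-in library sizes the median was -0.48 against 0.25 for all genes, and 0 of the 34 and 5 of all genes passed. Of the family sums, only that of the mitochondrial aldehyde dehydrogenases passed, at -0.92 ± 0.24 (adjusted p = 0.0397).

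Loss of SET3 gave 2 calls, both lower, where 2.50% of all genes were called, 1.92% lower and 0.579% higher. The median was -0.62 against 0.004 for all genes. GPP2 had 61.9 and 42.0 CPM in set3 and fell by 1.46 ± 0.24 (adjusted p = 0.0122), and ALD4 had 123 and 118 CPM and fell by 1.15 ± 0.25 (adjusted p = 0.0334). Both genes were below the naive range in both libraries. ALD3 had -1.19 ± 0.29 (adjusted p = 0.0517), PYK2 -1.002 ± 0.27 (adjusted p = 0.0728), ALD2 -0.74 ± 0.20 (adjusted p = 0.0742), TDH1 -1.08 ± 0.30 (adjusted p = 0.0814) and ENO1 -1.13 ± 0.35 (adjusted p = 0.115). The GPP2 call held only without naive replicate 1 and the ALD4 call in 0 of the 4 fits, so the count was 1 without naive replicate 1 and 0 without naive replicate 2, set3 replicate 1 or set3 replicate 2. Among all genes too, fewer were called in each of these 4 fits. Set3 replicate 2 was the shallowest library of the series.

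In the snt1 deletion 0 of the 34 genes passed by edgeR, 0 by DESeq2 and 0 by limma, where edgeR called 0.454% of all genes, 0.391% lower and 0.0626% higher, and 2 had an unadjusted p under 0.05. Those were ALD3, at -0.89 ± 0.28 (adjusted p = 0.329), and GPM3, at -0.48 ± 0.19 (adjusted p = 0.498). The share of all genes at that unadjusted level was not counted. The median was -0.060 against -0.004 for all genes, and the values ran from -1.09 for GPM2 to 0.58 for PGI1. The abundant enzymes differed widely between its 2 libraries: PGK1 had 24560 and 46540 CPM, ENO2 57500 and 103100 CPM, and GPM1 8933 and 4700 CPM.

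Averaged over the 3 deletions, 6 of the 34 genes fell and 0 rose, where 4.41% of all genes were called, 3.30% lower and 1.11% higher. GPP2 fell by 1.08 ± 0.18 (adjusted p = 0.00735), ALD3 by 1.12 ± 0.22 (adjusted p = 0.0141) and ALD2 by 0.69 ± 0.16 (adjusted p = 0.0276). PYK2 fell by 0.89 ± 0.21 (adjusted p = 0.0323), ADH5 by 0.83 ± 0.20 (adjusted p = 0.0353) and TDH1 by 0.93 ± 0.23 (adjusted p = 0.0404). For GPP2, ALD2 and ALD3 all 6 deletion libraries lay below both naive ones, while TDH1, PYK2 and ADH5 overlapped through the snt1 libraries. The count was 2 without naive replicate 1, 0 without naive replicate 2, 1 without hos2 replicate 1, and 3, 3 and 2 without hos2 replicate 2, set3 replicate 1 and set3 replicate 2. It was 9 without either snt1 replicate. Among all genes the number called fell without a naive, hos2 or set3 library and rose without an snt1 library. With only these 4 groups in the fit 2 of the 34 and 186 of all genes passed. With spike-in library sizes 0 of the 34 and 11 of all genes passed.

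**Figure D3:**
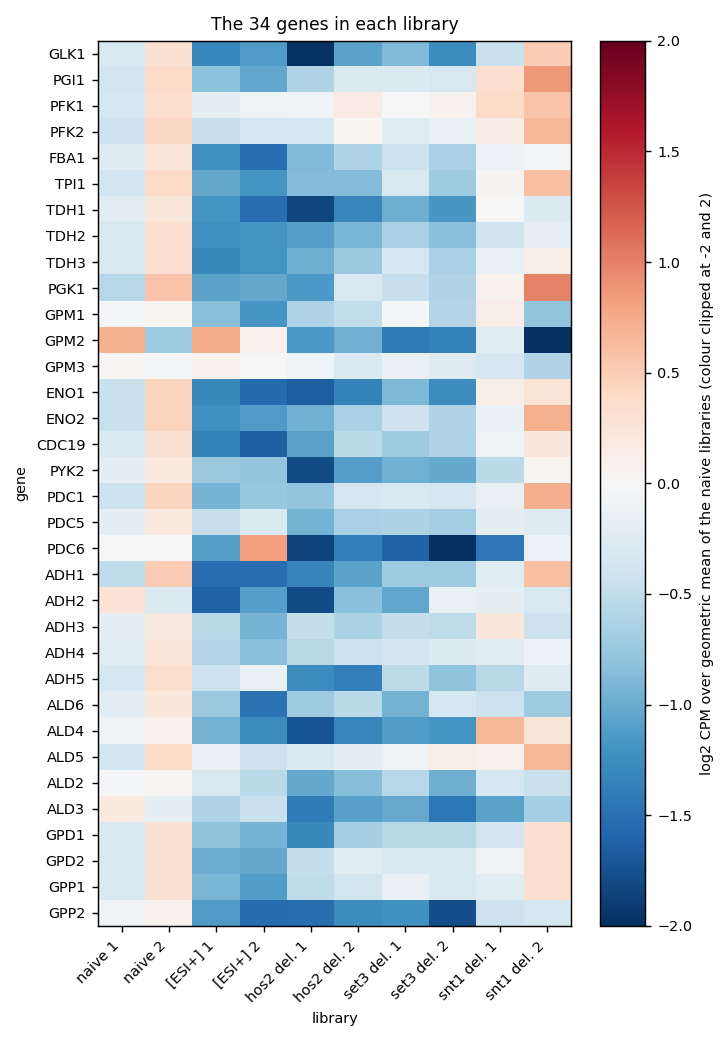
Each cell gives a gene's log2 CPM (colour) in a library (columns) over the geometric mean of the 2 naive libraries. GPP2 is below naive in all 8 other libraries, and ALD4 is below naive in [ESI+], hos2 and set3 and above it in both snt1 libraries.

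Among the deletions themselves, ALD4 alone of the 34 genes differed (F-test over hos2, set3 and snt1, adjusted p = 0.00433), where 0.939% of all genes did. ALD4 had 424 and 315 CPM in snt1, against 80.9 and 107 CPM in hos2 and 123 and 118 CPM in set3. In CPM both snt1 libraries exceeded every other library of the series, yet the log2 fold change against naive, 0.46 ± 0.24, did not pass (adjusted p = 0.597). In TPM ALD4 had 179.2 and 102.1 in snt1 against 135.9 and 110.9 in naive, which overlap. The difference among the deletions was not called with spike-in library sizes or with limma on TPM. The ALD4 call survived the loss of any 1 of the 6 deletion libraries. The summed mitochondrial aldehyde dehydrogenases, ALD4 with ALD5, differed too (adjusted p = 0.0392). An unadjusted p under 0.05 was seen for 14 of the 34 genes in that F-test, and the share of all genes at that level was not counted. Without snt1 replicate 1 the number called rose, among the 34 genes and among all genes.

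[ESI+] was also set against the mean of the 3 deletions, a comparison without the naive libraries. Of the 34 genes 5 were lower and 2 higher in [ESI+], where 35.1% of all genes differed, 15.9% lower and 19.2% higher, so the count was below the background. CDC19 was lower by -1.02 ± 0.30 (log2, adjusted p = 0.0210), FBA1 by -0.91 ± 0.28 (adjusted p = 0.0259) and PGI1 by -0.89 ± 0.28 (adjusted p = 0.0284). GPD2 was lower by -0.83 ± 0.22 (adjusted p = 0.0134) and GPP1 by -0.82 ± 0.25 (adjusted p = 0.0271). All 5 encode forms that did not pass in any single deletion. Scaled by the spike-ins, where all genes had a median of 1.10, all 5 lay above 0, at 0.13 to 0.31. With limma on TPM 8 of the 34 were called, all higher in [ESI+], where 3220 of all genes were higher and 176 lower. The median by limma was 0.25 for the 34 genes and 0.67 for all genes.

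GPM2 was higher in [ESI+] than in the deletions by 1.56 ± 0.42 (adjusted p = 0.0190), with 11.2 and 7.04 CPM against 1.51 to 5.6 CPM in the 6 deletion libraries. PDC6 was higher by 1.58 ± 0.55 (adjusted p = 0.0423), with 0.691 and 2.62 CPM against 0.113 to 1.38 CPM. For a gene of PDC6's length, the reads at silent genes alone come to 0.509 and 2.42 CPM in the [ESI+] libraries, and after their subtraction PDC6 had -1.23 (adjusted p = 0.138). For GPM2 that level is 0.282 and 1.34 CPM, and its call held with the subtraction. The calls in this comparison depended on single libraries. Fewer of the 34 genes and of all genes were called without an [ESI+], hos2 or set3 library, and more without an snt1 library. The median of the 34 genes minus that of all genes was -0.52 with every library. It was -0.61 and -0.48 without [ESI+] replicate 1 and 2, and -0.57 and -0.54 without snt1 replicate 1 and 2.

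Within an enzyme, the TPM of a minor form was set against that of the abundant form in each library. The pairs given are some of those computed. TDH1 was at 5.90 and 5.15% of the TPM of TDH3 in naive, 5.90 and 4.36% in [ESI+], 3.08 and 3.67% in hos2, 3.56 and 3.86% in set3, and 6.15 and 4.14% in snt1. ENO1 was at 23.6 and 23.9% of ENO2 in naive, 22.9 and 17.7% in [ESI+], 14.8 and 14.5% in hos2, 17 and 15.1% in set3, and 28.1 and 17.4% in snt1. For both enzymes the hos2 and set3 libraries were below every naive, [ESI+] and snt1 library. GPP2 was at 7.50 and 5.40% of GPP1 in naive, 5.51 and 4.73% in [ESI+], 3.16 and 3.43% in hos2, and 3.06 and 2.31% in set3, again the lowest 4 of the 10 libraries, with snt1 at 5.66 and 3.96%. PYK2 was at 0.314 and 0.268% of CDC19 in naive, 0.439 and 0.519% in [ESI+], and 0.175 to 0.256% in the 6 deletion libraries. ADH5 was at 0.233 and 0.188% of ADH1 in naive and 0.445 and 0.553% in [ESI+], higher there than in any other library. In hos2 ADH5 was at 0.219 and 0.17% of ADH1, which overlaps naive. ALD5 was at 50.5 and 74.8% of ALD4 in naive, 107 and 112% in [ESI+], 164 and 133% in hos2, 126 and 152% in set3, and 41.4 and 82.6% in snt1. TDH2 was at 24.4 to 25.6% of TDH3 in the naive and [ESI+] libraries and at 19.7 to 22.4% in the 6 deletion libraries, with no overlap. GPM2 was at 0.183 and 0.147% and GPM3 at 0.237 and 0.288% of GPM1 in [ESI+], both higher there than in any other library. PDC5 was at 0.0637 and 0.0638% of PDC1 in [ESI+], again higher than in any other library. In hos2 PDC5 was at 0.0413 and 0.0379% of PDC1, against 0.0546 and 0.039% in naive, which overlap. Some other pairs did not follow these patterns. GPD2 was at 49.5 and 49.8% of GPD1 in naive and higher, at 87.1 and 66.5%, in hos2. ADH2 was at 0.0544 and 0.0181% of ADH1 in naive and at 0.023 and 0.0372% in hos2, which overlap. None of these ratios was tested.

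**Figure D4:**
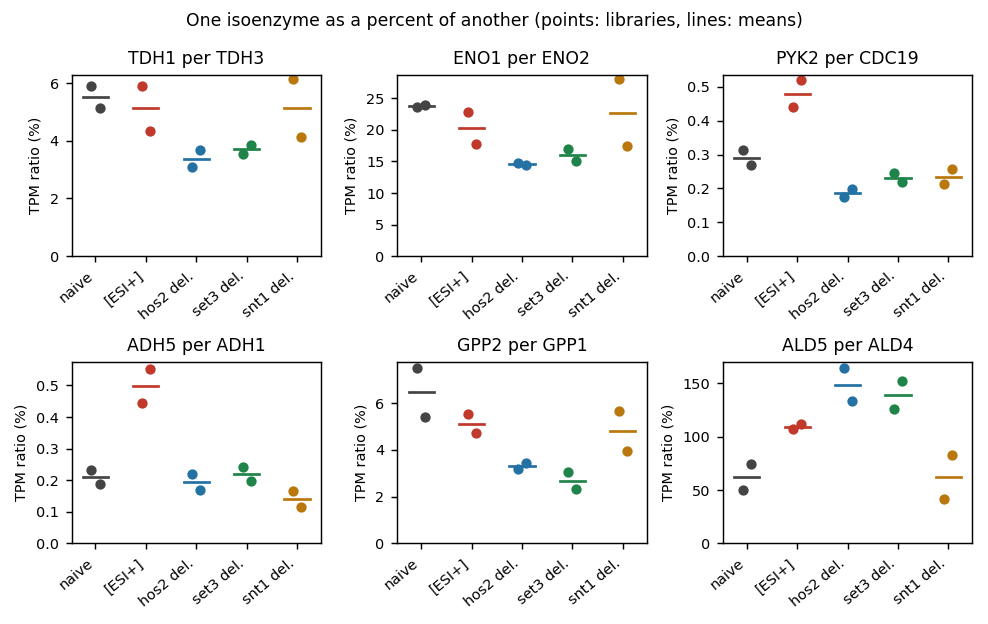
Each panel gives the TPM of one isoenzyme as a percent of another (y axis), with a point for each library and a line for the mean of 2. TDH1 against TDH3, ENO1 against ENO2 and GPP2 against GPP1 are lowest in the hos2 and set3 libraries, and PYK2 against CDC19 and ADH5 against ADH1 are highest in [ESI+].

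The 600 bases before each start codon were read from build R64 and searched on both strands for letters known from glycolytic and stress promoters. CTTCC, the core bound by Gcr1, stood in 27 of the 34 windows (79.4%) and in 72.9% of 6005 windows of all nuclear genes. CACCCA, from the Rap1 site, stood in 8 of 34 (23.5%) against 17.1%, and a longer Rap1 match, CACCCA with any base and then ACA, in 3 of 34 (8.82%) against 1.60%. The 3 were TDH3, ENO1 and GPM1, printed here because the study also profiled Rap1 binding, with the longer Rap1 match in capitals on either strand, CTTCC or its complement also in capitals in ENO1 and GPM1, and each sequence 5′ to 3′ along its gene.
TDH3, chrVII:884300-884333, minus strand: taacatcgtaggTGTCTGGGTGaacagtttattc
ENO1, chrVII:1000432-1000480, plus strand: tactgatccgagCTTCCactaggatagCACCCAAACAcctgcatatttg
GPM1, chrXI:164726-164792, minus strand: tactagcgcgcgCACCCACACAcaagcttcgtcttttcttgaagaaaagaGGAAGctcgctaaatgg
TDH3 and ENO1 fell in [ESI+] and GPM1 missed the threshold. A match describes the letters in the window and not a bound site.

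AGGGG, the stress response element read by Msn2 and Msn4, stood in 21 of 34 windows (61.8%) and in 39.7% of all. It was present in 9 of the 10 genes that fell in hos2 and in 12 of the other 24. ALD2 was the gene of the 10 without AGGGG. The difference between these sets was not tested, and the split was made for this deletion only. Whether the element plays a part in the fall was not tested either. As above, a match gives the letters and not a bound site. A stretch around a copy is shown for each of the 9, with AGGGG or its complement CCCCT in capitals, because these are the transcripts that fell with the deletion.
GLK1, chrIII:50642-50689, plus strand: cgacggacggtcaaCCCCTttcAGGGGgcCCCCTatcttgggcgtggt
TDH1, chrX:338020-338067, plus strand: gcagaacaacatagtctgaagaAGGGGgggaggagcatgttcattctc
ENO1, chrVII:1000504-1000551, plus strand: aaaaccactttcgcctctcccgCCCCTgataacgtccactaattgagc
PYK2, chrXV:986615-986662, minus strand: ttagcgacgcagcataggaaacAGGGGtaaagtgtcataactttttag
PDC5, chrXII:410331-410378, plus strand: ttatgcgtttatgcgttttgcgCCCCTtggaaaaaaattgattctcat
ADH5, chrII:533383-533430, plus strand: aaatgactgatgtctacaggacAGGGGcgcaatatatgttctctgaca
ALD4, chrXV:1039626-1039673, plus strand: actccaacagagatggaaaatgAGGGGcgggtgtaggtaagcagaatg
ALD3, chrXIII:601086-601133, minus strand: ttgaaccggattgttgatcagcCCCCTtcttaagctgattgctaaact
GPP2, chrV:280931-280978, minus strand: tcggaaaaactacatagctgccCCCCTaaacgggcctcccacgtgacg
GLK1 held 3 copies in the stretch shown.

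A list of 30 other genes around these pathways was followed beside them. In [ESI+] 3 rose and 4 fell, 23.3% of the list against 28.3% of all genes. GUT2, the mitochondrial glycerol-3-phosphate dehydrogenase that consumes glycerol phosphate, fell by 1.14 ± 0.27 (adjusted p = 0.0111), ADR1, an activator of ethanol use, rose by 0.66 ± 0.19 (adjusted p = 0.0237), and HXK1, a hexokinase repressed by glucose, fell by 1.33 ± 0.40 (adjusted p = 0.0311). In hos2 6 fell and 0 rose, 20% of the list against 7.65% of all genes. HXK1 had 101 and 198 CPM against 934 and 1008 CPM in naive and fell by 2.70 ± 0.42 (adjusted p = 0.00589), more than any of the 34 genes. GUT2 fell by 1.63 ± 0.28 (adjusted p = 0.00778) and PGM2, phosphoglucomutase, by 1.80 ± 0.37 (adjusted p = 0.0185). In set3 HXK1 and GUT2 fell, by 2.09 ± 0.41 (adjusted p = 0.0266) and 1.36 ± 0.28 (adjusted p = 0.0280), which made 6.67% of the list against 2.50% of all genes. Averaged over the deletions 4 of the 30 fell, 13.3% against 4.41% of all genes. PFK27, which makes the phosphofructokinase activator fructose 2,6-bisphosphate, was among them, and fell by 0.89 ± 0.19 (adjusted p = 0.0188). Against the deletions 6 of the 30 were higher and 2 lower in [ESI+], 26.7% against 35.1% of all genes. PFK27 and PFK26, of the same function, were among those higher, by 1.45 ± 0.18 (adjusted p = 0.000346) and 0.93 ± 0.15 (adjusted p = 0.00144). The activator genes GCR1, GCR2 and RAP1 had 0.33 ± 0.22, -0.27 ± 0.18 and 0.86 ± 0.31 in [ESI+] against naive (adjusted p = 0.275, 0.269 and 0.0587), none past the threshold.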

How the data were processed

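The authors' deposited tables hold, per library, expected counts (estimated reads per target, not normalized) and TPM, whose total includes ERCC and rRNA targets, per the file headers. They come from kallisto 0.44 and build R64 per the submitters' processing notes; the strand setting is not given in the sources used here. Target lengths equal coding lengths. Deposited values carry 6 significant digits.

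Expected counts were rounded, spike-ins set aside and 6390 genes kept by filterByExpr. Genes were tested in edgeR 4.0.16 under R 4.3.3 by robust quasi-likelihood after TMM scaling, 1 coefficient per group over 10 libraries, with 7 contrasts, two-sided, Benjamini-Hochberg adjusted over all genes at 0.05. A standard error is the fold change over the square root of F. CPM use TMM-scaled library sizes. Alternatives used DESeq2 1.42.0, limma 3.58.1 on log2(TPM + 1), spike-in sizes, other filters, a coding-length offset (loess span 0.5), subtraction of reads at silent genes (under 0.2 CPM per kb elsewhere) and leaving out each library on the same genes. The members, lists, tests and alternatives were chosen with earlier results of these data known. Genes named with full statistics are up to 12 called members per comparison by smallest p, all isoenzyme sets, and up to 5 called genes of the other list. No libraries held identical values. The fit was tested on simulated data.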

Additional observations from a re-analysis of the deposited data

Results flagged for a closer look

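These 8 differences between groups passed a direct test of the difference. Between [ESI+] and the mean of the deletions 20.6% of the 34 genes were called, below the 35.1% of all genes. Among the deletions 2.94% of the 34 genes and 0.939% of all genes were called. Of the genes that differed between [ESI+] and the mean of the deletions, PGI1 had a log2 difference of -0.89, FBA1 -0.91, CDC19 -1.02, GPD2 -0.83 and GPP1 -0.82, while GPM2 had 1.56 and PDC6 1.58. PDC6 had 46 and 231 estimated counts in the [ESI+] libraries, close to the level at silent genes there. ALD4 differed among the deletions (edgeR F-test, adjusted p = 0.00433), with snt1 above hos2 and set3 in all 6 libraries. The part that depth or background reads play in these differences was not tested beyond the alternatives given here.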

How the results depend on the processing

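Counts of the 34 genes called were 19 for [ESI+], 10 for hos2, 2 for set3, 0 for snt1 and 6 for the 3 deletions against naive, 7 for [ESI+] against the deletions and 1 among the deletions. Leaving out 1 library at a time gave 0 to 21, 0 to 12, 0 to 1, 0 to 0, 0 to 9, 0 to 14 and 1 to 11. The number called among all genes fell in each fit without a naive, [ESI+], hos2 or set3 library and rose without an snt1 library. DESeq2 called 18 in hos2, 8 in set3, 16 for [ESI+] against the deletions and 15 among them. Of all genes it called 747, 399, 2416 and 515. Spike-in library sizes left 0 in [ESI+], hos2, set3, the deletions together and among the deletions, and 1 for [ESI+] against the deletions. Of all genes these library sizes left 32, 5, 3, 11 and 8, and 238 for [ESI+] against the deletions. With them, [ESI+] against naive was 0.038 for PGI1, 0.070 for PYK2 and 0.22 for ADH4, and [ESI+] against the deletions was 0.24 for PGI1, 0.24 for FBA1, 0.13 for CDC19, 0.23 for GPD2 and 0.31 for GPP1, all reversed in sign. limma on log2 TPM called 5 in [ESI+], 2 in hos2, 1 in set3, 1 for the deletions together and 0 among them, with ADH4 at 0.029 in [ESI+]. Of all genes limma called 2851, 121, 35, 91 and 20. [ESI+] against the deletions gave 2 higher and 5 lower by edgeR with TMM, 1 and 6 with RLE size factors, and 8 and 0 by limma. Over all genes the same settings gave 1226 higher and 1014 lower, 1087 and 1094, and 3220 and 176. A mean CPM of at least 10 gave 4 in set3 and 4 among the deletions, and 172 and 155 of all genes. A fit to only the groups compared gave 6 in set3, 2 for the deletions together and 12 for [ESI+] against them. Of all genes that fit gave 544, 186 and 2250. Removing the length trend gave 1 in set3, and 122 of all genes. Subtracting the reads at silent genes gave 4 for [ESI+] against the deletions, and 1727 of all genes. It turned PDC6 to -2.70 against naive and -1.23 against the deletions. The members' mean share was 32.0% of counts and 21.5% of TPM. The replicate numbers were not taken as pairs: deviations of same-numbered libraries correlated at -0.058 to 0.322. With the replicate block, 23 genes were called in [ESI+], 14 in hos2, 6 in set3, 10 for the deletions together, 13 for [ESI+] against them and 6 among them. Of all genes the block gave 2335, 848, 403, 544, 2771 and 348. The cause of these shifts was not tested.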
